A study of Mus musculus with 8 samples.

Results

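The genes described here are 29 genes of cholesterol synthesis and of its control by the transcription factor SREBP-2, out of 48795 genes in each expression table. They were chosen by symbol and role, with earlier results of these data known: 19 enzymes in pathway order, 6 genes of the SREBP-2 control machinery and 4 further SREBP-2 targets. The study had already reported several of the enzymes as lower in CD1d-KO pMacs from these same libraries. Counts of lower genes in this set are therefore no independent evidence. The study also reported *Hmgcs1* and *Cyp51* as lower by qPCR in pMacs, in bone-marrow derived cells and in pMacs from mixed bone-marrow chimeras. All 29 were found and all 29 passed the filter on low counts that left 13040 genes for testing. RNA-seq of polyA RNA was carried out on peritoneal macrophages (pMacs) from the peritoneal lavage of WT C57BL/6 mice and of CD1d-KO mice, with 4 libraries per genotype and no stimulation or infection in the labels. CD1d is the molecule that presents lipids to NKT cells. The control mice were littermates, matched for age and sex, and all 8 libraries carried female-type expression. The study used both a deletion of the *Cd1d1* and *Cd1d2* locus and a floxed *Cd1d1* allele crossed to a ubiquitous Cre, and which of these gave the CD1d-KO libraries was not stated in the sources used here. Libraries were numbered 1, 2, 3 and 5 in both genotypes, and same-numbered libraries are called a pair.

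Cells make cholesterol from acetyl-CoA through mevalonate, farnesyl diphosphate, squalene and lanosterol, and most steps have their own enzyme. When membrane sterol is plentiful, the INSIG proteins hold SCAP and its cargo SREBP-2 in the endoplasmic reticulum. When sterol runs low, SCAP carries SREBP-2 to the Golgi, where the proteases encoded by *Mbtps1* and *Mbtps2* release the part that enters the nucleus and switches on the enzyme genes, *Insig1* and SREBP-2's own gene, *Srebf2*. In macrophages this system is also known to respond to inflammatory and interferon signals.

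*Hmgcs1* is an early enzyme gene with a full sterol regulatory element core, and *Cyp51* and *Hsd17b7* passed an adjusted p under 0.05. *Scap* had a log2 fold change above 0 that did not pass this threshold. The DNA before the start of these 4 genes is shown. Each is the stretch of 250 bases upstream of a RefSeq start on GRCm38.p6, written 5′ to 3′ on the strand of the gene, with CCAAT boxes (CCAAT, or ATTGG on the opposite strand) and the sterol element core (TCACNCCAC) in capitals.
Hmgcs1 (chr13:119690101-119690350, plus strand): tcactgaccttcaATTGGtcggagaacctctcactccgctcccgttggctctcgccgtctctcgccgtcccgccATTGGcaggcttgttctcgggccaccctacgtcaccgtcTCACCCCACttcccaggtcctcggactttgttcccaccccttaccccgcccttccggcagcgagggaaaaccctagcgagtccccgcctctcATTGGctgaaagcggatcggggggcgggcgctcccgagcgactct
Cyp51 (chr5:4104698-4104947, minus strand): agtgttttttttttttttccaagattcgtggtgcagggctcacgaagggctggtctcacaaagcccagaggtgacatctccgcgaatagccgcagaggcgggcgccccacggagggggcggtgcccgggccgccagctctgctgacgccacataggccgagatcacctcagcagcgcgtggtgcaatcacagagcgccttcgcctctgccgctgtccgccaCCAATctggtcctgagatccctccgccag
Hsd17b7 (chr1:169969206-169969455, minus strand): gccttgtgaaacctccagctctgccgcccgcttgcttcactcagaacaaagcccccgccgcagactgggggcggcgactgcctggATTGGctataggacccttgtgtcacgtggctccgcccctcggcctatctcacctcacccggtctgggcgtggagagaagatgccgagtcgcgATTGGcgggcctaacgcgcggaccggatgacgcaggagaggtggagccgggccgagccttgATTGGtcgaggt
Scap (chr9:110333038-110333287, plus strand): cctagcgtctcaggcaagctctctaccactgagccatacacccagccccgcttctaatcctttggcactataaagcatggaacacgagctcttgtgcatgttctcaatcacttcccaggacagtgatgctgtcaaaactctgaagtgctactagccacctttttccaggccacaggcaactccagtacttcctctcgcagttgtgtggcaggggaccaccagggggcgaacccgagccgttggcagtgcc

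A promoter window of 250 bases before to 50 bases after the start was given for 25 of the 29 genes, and the letters of each motif were searched on both strands. The CCAAT box was present in 20 of the 25 genes (80%), against 43% of the 9267 tested genes with a window and 41.1% of all 27025 genes with a window. Among the 16 enzyme genes with a window, 15 (93.8%) held it, *Acat2* being the exception. Among the control genes, *Srebf2*, *Insig1* and *Insig2* held it, and *Scap*, *Mbtps1* and *Mbtps2* did not. GC boxes (GGGCGG) were in 84% of the 25 genes against 68.4% of the tested genes, and E-boxes (CACGTG) in 24% against 12%. The full core TCACNCCAC was found only in *Hmgcs1* (4% of the 25 genes, against 1.44% of all genes), and its shorter form CACNCCA, which lies inside it, in 6 genes (24% against 20.6%). These matches describe letters in a window and were not tested against the expression values.

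The libraries held from 13698864 to 19059432 expected counts, and normalized counts below are scaled to the mean effective library size. *Cd1d1*, the deleted gene (ENSMUSG00000028076, chromosome 3 from 86995834 to 86999441, GRCm38), had normalized counts of 68.2, 175, 96.1 and 141 in WT replicates 1, 2, 3 and 5. In CD1d-KO replicates 2, 3 and 5 its counts were 1.14, 0 and 1.10, whereas the library labelled CD1d-KO replicate 1 had 60.7 and so went against its label. The edgeR calls among the 29 genes and the counts of genes lower in all pairs are therefore also given without replicate 1, whereas the DESeq2 calls and the counts of libraries that do not overlap rest on all 8 libraries. Macrophage markers summed to 23594 to 31851 CPM (counts scaled to a common library size), with the pair 3 library lowest in each genotype (26154 in WT and 23594 in CD1d-KO). B cell markers summed to 200 to 580 CPM in WT and 124 to 965 CPM in CD1d-KO libraries. The sum of the 6 neutrophil markers was 2.95 to 3.80 CPM in WT and 4.92 to 6.35 CPM in CD1d-KO libraries, with *Ly6g* at 0 in all 8. These sums did not overlap, a separation upward found for 1.04% of single genes tested. The counts were few, and only 1 of the 6 markers passed the filter. In this list *S100a8* and *S100a9* lie on chromosome 3 (from 90668978 and from 90692632), the chromosome of *Cd1d1*. Of the markers in the 10 cell type lists that passed the filter on low counts, none had an adjusted p under 0.05. The filter left 0 of 5 mesothelial, 0 of 4 stromal and adipocyte, 1 of 3 erythroid and 2 of 7 T and NK cell markers. Such lists were therefore hardly or not tested. The part of these cells in the results below was not tested. Fewer cells of a type and less RNA per cell cannot be told apart in bulk RNA.

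Most of the 29 genes had lower mean expression in CD1d-KO than in WT pMacs, by a modest amount. The log2 fold change, CD1d-KO over WT, was below 0 for 27 of the 29, where it was for 6390 of the 13040 genes tested. Of the 29, 18 were lower in the CD1d-KO library of all 4 pairs, against a background of 10.1% of all genes tested. Those 18 were 14 of the 19 enzymes, *Srebf2* and *Insig1* of the control genes, and *Stard4* and *Aacs* of the other targets. *Scap* alone was higher in all 4 pairs (background 10.6%). Without replicate 1, 18 genes were lower in all of pairs 2, 3 and 5, where 15.8% of all genes were. The median log2 fold change was -0.44 for the enzymes (-0.45 without replicate 1), -0.13 for the control genes and -0.31 for the other targets, against 0.0047 for all genes tested.

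**Figure D1:**
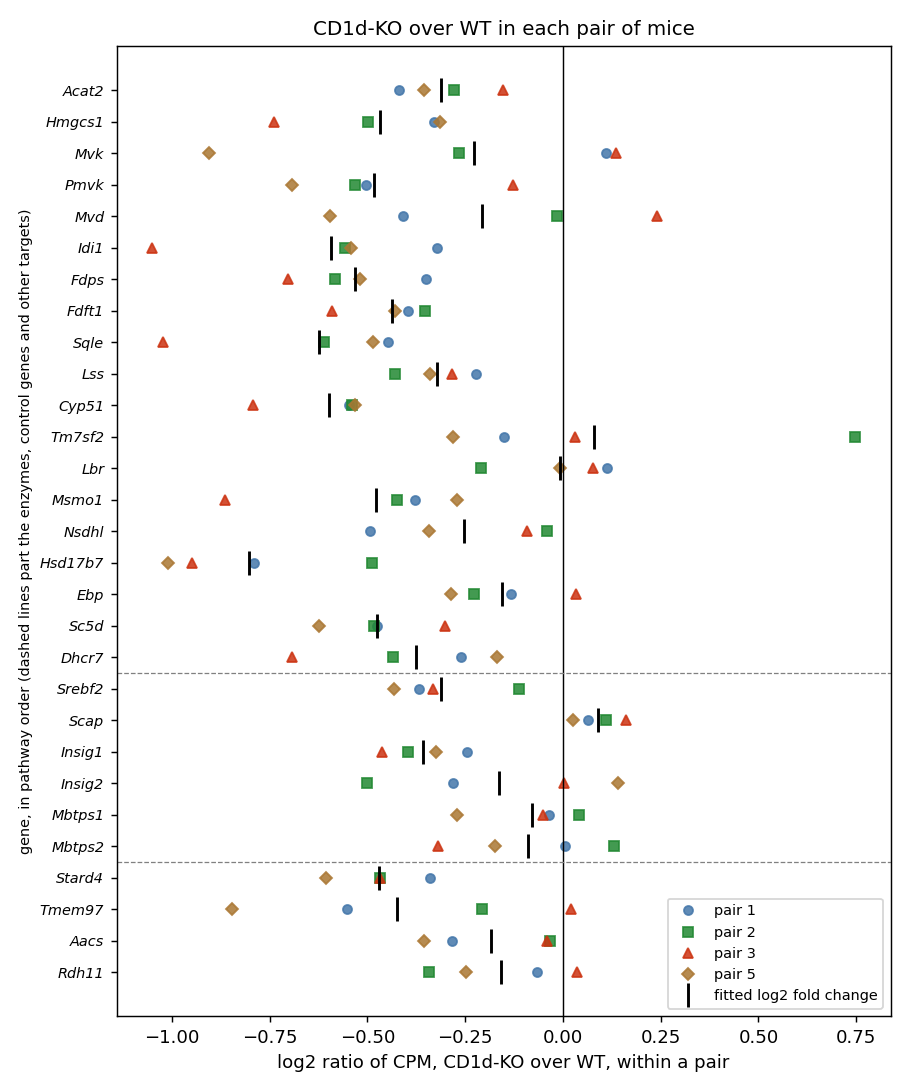
Log2 ratio of CPM, CD1d-KO over WT, for the 29 genes in pathway order, with a marker for each of the 4 pairs and a black bar for the fitted log2 fold change. Most points lie left of 0, pair 3 lies farthest left for *Idi1*, *Sqle*, *Cyp51* and *Msmo1* and right of 0 for *Mvd* and *Mvk*, and the 4 points of *Scap* lie right of 0.

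With edgeR's quasi-likelihood test, 0 of the 29 genes passed an adjusted p under 0.01 with a fold change above 1.5, where the background was 0% of 13040 genes lower and 0.0383% higher. At an adjusted p under 0.05, 2 genes were lower (background 0.123%) and 0 were higher (0.284%): *Cyp51*, the lanosterol demethylase, and *Hsd17b7*, a later reductase. At an unadjusted p under 0.05, 16 genes were lower (background 5.01%) and 0 higher (7.35%). DESeq2 with the same covariates called 4 genes lower at the stricter pair of thresholds (*Idi1*, *Sqle*, *Cyp51* and *Hsd17b7*, background 0.252%) and 12 at an adjusted p under 0.05 (background 0.711%), with 0 higher in either count (backgrounds 0.543% and 1.45%). Over all alternatives the adjusted p of each of those 12 reached 0.997, its value without the replicate block, and the lowest was 3.13e-06, for *Cyp51* with DESeq2. Without the block, edgeR called 0 of the 29 genes at an adjusted p under 0.05. Without replicate 1, edgeR called 0 genes in either direction at an adjusted p under 0.05 (backgrounds 0.0309% lower and 0.0617% higher), and at an unadjusted p under 0.05 it called 14 lower (3.68%) and 0 higher (5.55%). None of the 29 genes had all CD1d-KO libraries below all WT libraries, a separation found for 0.913% of all genes, nor all above, found for 1.04%.

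The early enzymes take acetyl-CoA to farnesyl diphosphate, and all 7 measured here had a log2 fold change below 0, with a median of -0.47. *Acat2*, which joins acetyl-CoA units, had 153, 170, 117 and 124 normalized counts in WT and 114, 140, 105 and 96.7 in CD1d-KO replicates 1, 2, 3 and 5 (log2 fold change -0.31 ± 0.12 SE, edgeR adjusted p = 0.341). Of the 2250 bases of its transcript, 1477 align at 97.7% identity with *Acat3*, whose expected counts stayed at or under 23.9, and 445 at 98.7% with *Tcp1*, which reached 3025 against a mean of 128 for *Acat2*. How reads of the shared stretches were divided is uncertain, and so is the level of *Acat2*. *Hmgcs1*, which makes HMG-CoA (ENSMUSG00000093930, chromosome 13 from 119690379 to 119708260), had 1481, 2180, 1265 and 1741 normalized counts in WT. In CD1d-KO pMacs it had 1179, 1542, 758 and 1399, lower in every pair, with CD1d-KO replicate 2 above both WT replicates 1 and 3 (log2 fold change -0.47 ± 0.09 SE, adjusted p = 0.0825 with edgeR and 0.00269 with DESeq2).

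The mevalonate kinases and decarboxylase were less even over the mice. *Mvk*, mevalonate kinase, had 97.4, 106, 75.7 and 119 normalized counts in WT and 105, 88.1, 83.4 and 62.7 in CD1d-KO libraries, lower in 2 of 4 pairs, with pair 5 giving a log2 ratio of -0.91. *Pmvk*, the next kinase, was lower in 4 of 4 pairs (139 ± 36.1 in WT and 98.3 ± 16.1 in CD1d-KO, SD, n = 4), and its adjusted p from edgeR was 0.211. *Mvd*, which makes isopentenyl diphosphate, had 529, 459, 258 and 445 normalized counts in WT libraries and 398, 454, 305 and 294 in CD1d-KO libraries. Its ratio ran from -0.60 in pair 5 to 0.24 in pair 3.

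*Idi1*, the isomerase of isopentenyl diphosphate, and *Fdps*, which builds farnesyl diphosphate, had larger differences. *Idi1* (chromosome 13 from 8885501 to 8892451) had 666, 865, 316 and 606 normalized counts in WT and 533, 587, 152 and 416 in CD1d-KO replicates 1, 2, 3 and 5. It was lower in every pair, most in pair 3 (log2 ratio -1.05), and the groups overlapped because WT replicate 3 lay below 3 of the 4 CD1d-KO libraries (log2 fold change -0.59 ± 0.11 SE, adjusted p = 0.101 with edgeR and 0.00716 with DESeq2). A pseudogene with an identical stretch, *Gm13502*, held at most 92 counts, and it can share reads with *Idi1*. *Fdps* had 614, 865, 279 and 651 in WT and 481, 577, 170 and 454 in CD1d-KO libraries (log2 fold change -0.53 ± 0.08 SE, edgeR adjusted p = 0.0501). *Fdps* lies 2.09 Mb and *Pmvk* 2.46 Mb from *Cd1d1* on chromosome 3, where strain differences around the deleted locus cannot be told apart from the deletion. The median of the 17 enzymes without these neighbours was -0.37.

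From farnesyl diphosphate, *Fdft1* makes squalene, *Sqle* oxidizes it and *Lss* closes the rings to lanosterol, and the normalized counts of all 3 were lower in all 4 pairs. *Sqle* (chromosome 15 from 59315077 to 59331192) had 473, 680, 286 and 521 normalized counts in WT and 346, 445, 140 and 372 in CD1d-KO pMacs. Pair 3 had the lowest library of each genotype and the largest ratio, -1.02 (log2 fold change -0.62 ± 0.11 SE, adjusted p = 0.0677 with edgeR and 0.00367 with DESeq2). *Fdft1* had 615 ± 192 in WT and 460 ± 168 in CD1d-KO pMacs (SD, n = 4), and ratios ran from -0.59 to -0.35, with an edgeR adjusted p of 0.0644. Exons of *Fdft1* share 774 bases with *Ctsb* on the opposite strand, the lysosomal protease cathepsin B, whose mean was 49800 expected counts against 547 for *Fdft1*. The strand setting of the counting was not given in the sources used here, and *Ctsb* itself had a log2 fold change of -0.06 (adjusted p = 0.819). *Lss* had 366, 481, 163 and 355 in WT and 314, 357, 134 and 280 in CD1d-KO libraries, and its log2 fold change was -0.32 ± 0.08 SE (edgeR adjusted p = 0.169). In TPM the direction of *Lss* was not the same in every pair, with 12, 13.4, 3.27 and 14.8 in WT and 16.4, 7.92, 5.02 and 11.5 in CD1d-KO libraries, higher in CD1d-KO in pairs 1 and 3. On log2(TPM + 1) its difference was -0.028 (limma adjusted p = 0.980).

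After lanosterol, demethylation, reduction and isomerization lead to cholesterol, and the 9 enzymes measured here had a median of -0.37. *Cyp51* (ENSMUSG00000001467, chromosome 5 from 4081145 to 4104746, whose promoter is shown above) had 1378, 1628, 691 and 1246 normalized counts in WT and 943, 1120, 398 and 862 in CD1d-KO pMacs. All 4 pairs were lower, with ratios of -0.55, -0.54, -0.79 and -0.53. Its log2 fold change was -0.60 ± 0.07 SE, with an adjusted p of 0.0239 from edgeR, 0.0875 without replicate 1 and 3.13e-06 from DESeq2. *Hsd17b7* (ENSMUSG00000026675, chromosome 1 from 169949535 to 169969241), which reduces the 3-ketone left by demethylation, had the largest fold change of the 29. It had 397, 506, 195 and 443 normalized counts in WT and 229, 360, 99.9 and 219 in CD1d-KO replicates 1, 2, 3 and 5, so that its fitted level was 42.6% lower in CD1d-KO pMacs, whereas CD1d-KO replicates 1, 2 and 5 stayed above WT replicate 3. Its log2 fold change was -0.80 ± 0.11 SE, with an adjusted p of 0.0381 from edgeR, 0.127 without replicate 1 and 1.66e-04 from DESeq2.

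*Msmo1*, the C4-methyl oxidase, and *Sc5d*, the desaturase, also were lower in every pair. *Msmo1* had 979, 1311, 805 and 968 in WT and 753, 976, 442 and 802 in CD1d-KO libraries (log2 fold change -0.48 ± 0.10 SE, adjusted p = 0.122 with edgeR and 0.0162 with DESeq2). *Sc5d* had 963, 1168, 598 and 883 in WT and 691, 835, 485 and 573 in CD1d-KO libraries (log2 fold change -0.47 ± 0.07 SE, adjusted p = 0.0506 and 0.00197). *Nsdhl*, the C4 decarboxylase, was lower in 4 of 4 pairs by 0.04 to 0.49 on the log2 scale, *Dhcr7*, which reduces 7-dehydrocholesterol, in 4 of 4, and *Ebp*, the sterol isomerase, in 3 of 4. The edgeR adjusted p-values of these 3 lay between 0.483 and 0.516. In TPM *Dhcr7* was higher in CD1d-KO in pair 2, at 3.30 against 3.01 in WT.

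The C14 reduction can be carried out by the product of *Tm7sf2* or of *Lbr*, the lamin B receptor, and both had small differences between genotypes. *Lbr* had 638, 690, 477 and 630 normalized counts in WT and 689, 596, 503 and 627 in CD1d-KO libraries (log2 fold change -0.01 ± 0.08 SE, adjusted p = 0.979). *Tm7sf2* had only 32.2, 18.3, 25.2 and 28.5 in WT and 28.8, 32.0, 25.8 and 23.1 in CD1d-KO libraries (log2 fold change 0.08 ± 0.28 SE). Its counts are few and its standard error is large, so its difference is not well measured. Of its exonic bases, 532 lie in *Vps51* on the same strand, which makes its level uncertain too. Both signs changed under another setting, given with the processing alternatives.

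**Figure D2:**
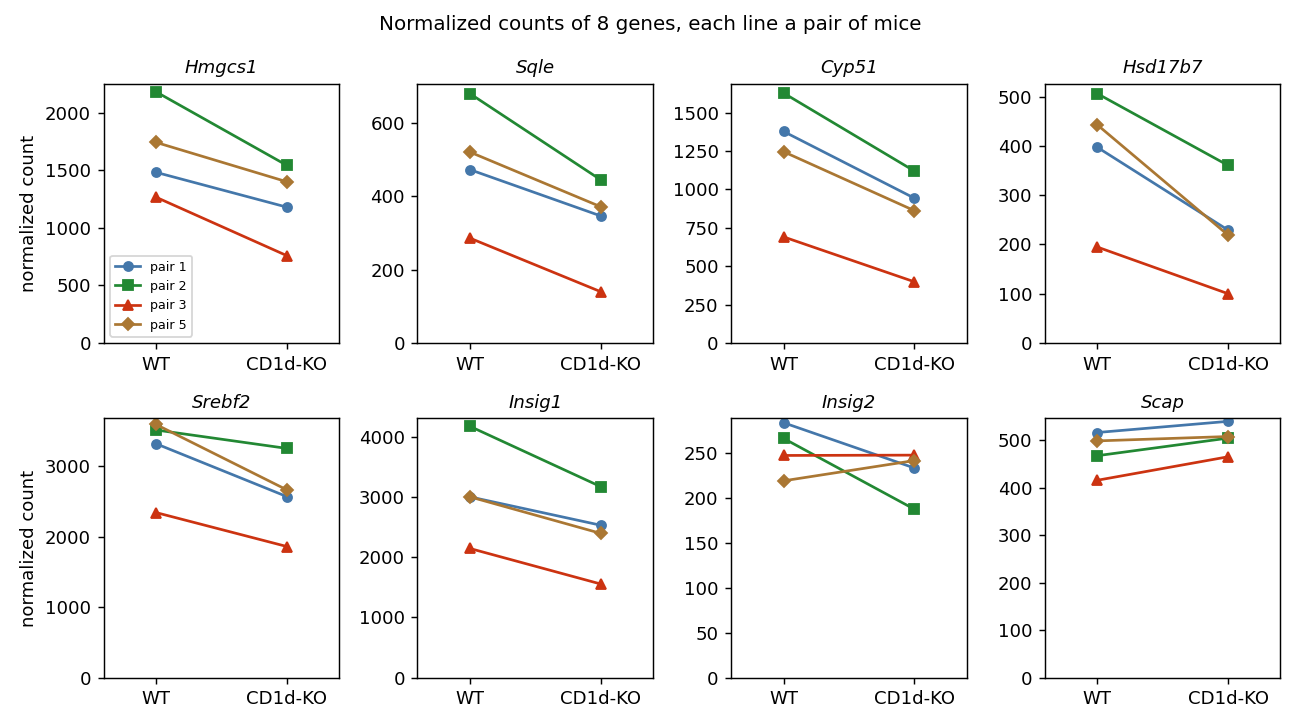
Normalized counts of 8 genes in WT and CD1d-KO pMacs, with a line joining the libraries of each pair. Lines of *Hmgcs1*, *Sqle*, *Cyp51*, *Hsd17b7*, *Srebf2* and *Insig1* go down in all 4 pairs, those of *Insig2* cross, those of *Scap* go up, and pair 3 lies lowest in both genotypes in the panels of the 4 enzymes.

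Of the 6 control genes, 0 passed an adjusted p under 0.05 with edgeR, and *Srebf2* and *Insig1* passed with DESeq2. *Srebf2* (ENSMUSG00000022463, chromosome 15 from 82147181 to 82205379) had 3323, 3518, 2345 and 3597 normalized counts in WT and 2572, 3257, 1863 and 2668 in CD1d-KO replicates 1, 2, 3 and 5. It was lower in 4 of 4 pairs, with overlapping groups (log2 fold change -0.31 ± 0.08 SE, adjusted p = 0.160 with edgeR and 0.0344 with DESeq2). *Insig1*, which encodes a retention factor of SCAP and SREBP-2, had 3000, 4171, 2144 and 3000 in WT and 2529, 3170, 1554 and 2394 in CD1d-KO libraries. It too was lower in 4 of 4 pairs (log2 fold change -0.36 ± 0.07 SE, adjusted p = 0.101 with edgeR and 0.00238 with DESeq2).

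*Insig2*, whose product has the same role but whose gene is not driven by SREBP-2 in the same way, had 284, 267, 248 and 219 in WT and 234, 188, 248 and 242 in CD1d-KO libraries. It was lower in 2 of 4 pairs (log2 fold change -0.16 ± 0.12 SE, adjusted p = 0.650). The difference between *Insig1* and *Insig2* in response was not tested. *Scap*, the escort, had 516, 467, 416 and 499 in WT and 540, 504, 465 and 508 in CD1d-KO libraries, and its log2 fold change of 0.09 ± 0.07 SE did not pass (adjusted p = 0.663). *Mbtps1* and *Mbtps2*, the proteases, had log2 fold changes of -0.08 ± 0.07 and -0.09 ± 0.09 SE.

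The other SREBP-2 targets act outside the pathway itself. *Stard4*, which carries cholesterol between membranes, had 910, 1031, 362 and 848 normalized counts in WT and 719, 745, 261 and 556 in CD1d-KO pMacs, lower in every pair (log2 fold change -0.47 ± 0.07 SE, adjusted p = 0.0501 with edgeR and 0.00324 with DESeq2). *Aacs*, which activates acetoacetate for sterol synthesis, was lower in 4 of 4 pairs, by 0.03 in pair 2 and 0.36 in pair 5 on the log2 scale (edgeR adjusted p = 0.479). *Tmem97*, the sigma-2 receptor, had 271, 242, 94.9 and 258 in WT and 184, 209, 96.3 and 143 in CD1d-KO pMacs. It was lower in 3 of 4 pairs and level in pair 3 (log2 fold change -0.42 ± 0.15 SE, adjusted p = 0.300). *Rdh11*, a retinol dehydrogenase, had the smallest fold change of the 4, at -0.16 ± 0.10 SE.

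Levels per transcript length, in TPM, which divides counts by transcript length and scales to a common total, differed over the pathway by more than they differed between genotypes. In WT pMacs *Insig1* was highest of the 29 at 129 ± 30.4 TPM (SD, n = 4), followed by *Msmo1* at 72.8 ± 14.2 and *Srebf2* at 66.0 ± 14.4, and these last 2 did not differ beyond their spread. *Hmgcs1* (53.1 ± 10.9), *Fdps* (51.6 ± 20) and *Sc5d* (48.4 ± 13.7) came next and overlapped each other. *Tm7sf2* (3.73 ± 1.02) and *Dhcr7* (3.35 ± 1.9) were lowest. The summed level of the 19 enzymes was 549, 560, 294 and 485 TPM in WT and 428, 433, 203 and 385 TPM in CD1d-KO replicates 1, 2, 3 and 5. All 4 pairs were lower in CD1d-KO, by 0.33 to 0.53 on the log2 scale, whereas the mean levels of 472 ± 123 and 362 ± 108 TPM overlapped.

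**Figure D3:**
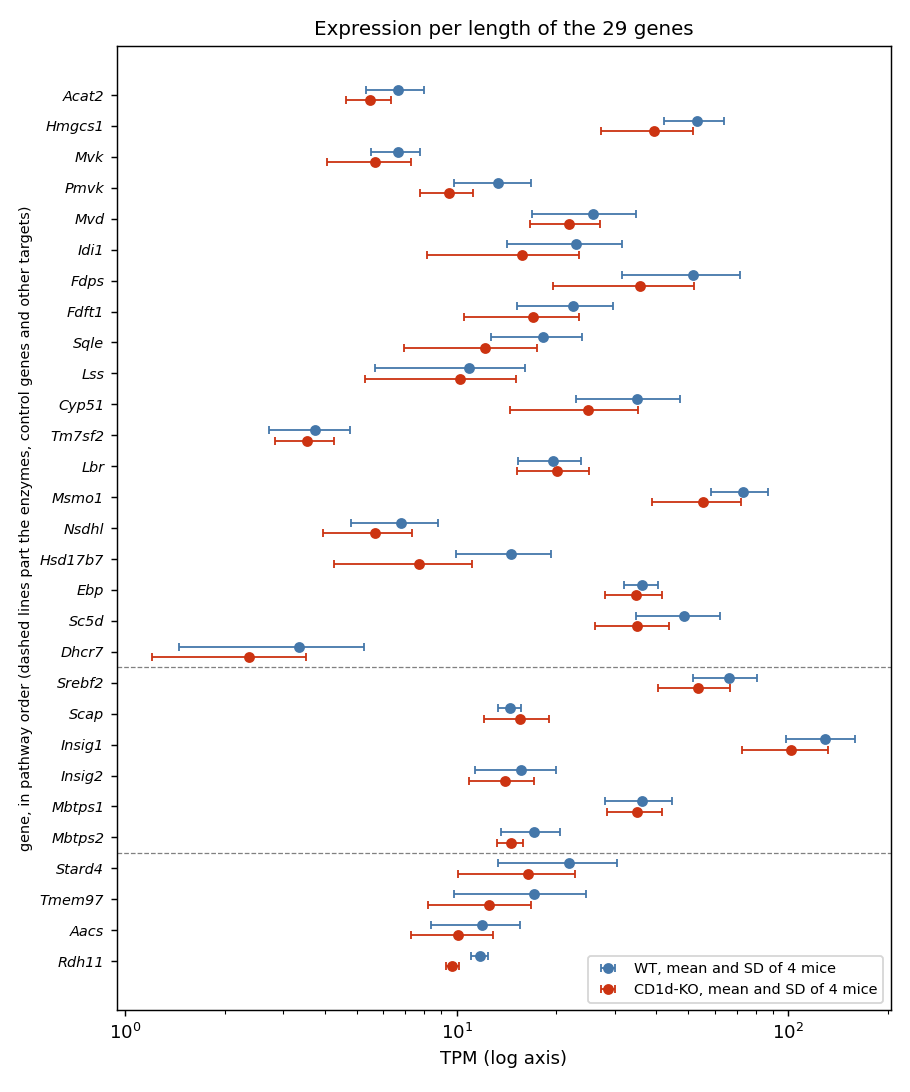
TPM of the 29 genes on a log axis, as mean and SD of the 4 WT (blue) and 4 CD1d-KO (red) libraries. *Insig1* lies highest, *Tm7sf2* and *Dhcr7* lowest, and the SD bars of both genotypes overlap for most genes.

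Across the enzymes the libraries differed between pairs in both genotypes. WT replicate 3 was the lowest WT library for 18 of the 19 enzymes, where it was lowest for 34.2% of all genes, and CD1d-KO replicate 3 was the lowest CD1d-KO library for 15 of 19, against 30.9% of all genes. WT replicate 2 was the highest WT library for 15 of 19 (20.9% of all genes), and CD1d-KO replicate 2 the highest CD1d-KO library for 16 of 19 (25.6%). CD1d-KO replicate 2 exceeded WT replicate 3 in all 19 enzymes. These libraries were picked after their order was seen, and the share over all genes was not counted. The highest WT library held a median of 1.98 times the lowest over the enzymes, up to 3.10 for *Fdps*, against 1.46 for all genes tested, while the fitted level of the enzymes in CD1d-KO pMacs was a median of 26.1% below that in WT.

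As a share of the sum of squares of log2 CPM over the 8 libraries, the pair took a median of 71.8% for the enzymes and the genotype 17.6%, against 64.8% and 7.14% for all genes tested. There are more pairs than genotypes, and the shares were not scaled for this, which by itself favours the pair. Whether pair or genotype weighs more for a gene therefore cannot be read from these shares. For none of the 29 genes did the genotype take more than the pair, as it did for only 1285 of the 13040 genes tested. *Lss* (92.1%) and *Dhcr7* (89.6%) had the largest shares of the pair among the enzymes, and *Pmvk* (40.4%), *Acat2* (35.2%) and *Sc5d* (34.8%) the largest of the genotype. What a shared number stands for beyond the number itself was not given in the labels.

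**Figure D4:**
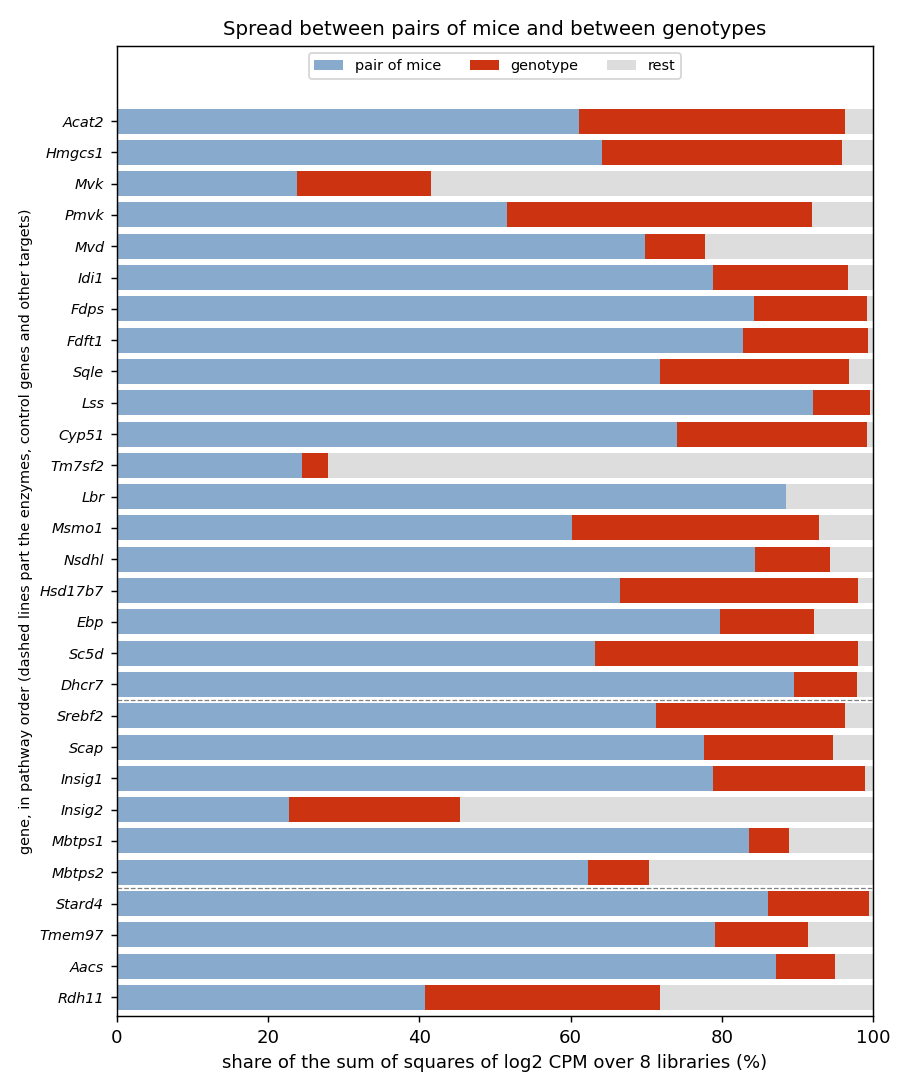
Share of the sum of squares of log2 CPM over 8 libraries taken by the pair of mice (blue), the genotype (red) and the rest (grey), in percent, for the 29 genes. The blue part exceeds the red part for all 29 genes, and *Mvk*, *Tm7sf2* and *Insig2* have the largest grey parts. The parts are not scaled for the larger number of pairs than genotypes. Over all genes tested, the genotype took more than the pair for 1285 of 13040.

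The ratios of the enzymes were uneven over pairs. In pair 3 the ratio was -1.05 for *Idi1*, -1.02 for *Sqle*, -0.95 for *Hsd17b7* and -0.86 for *Msmo1*, beside 0.24 for *Mvd*, 0.14 for *Mvk* and 0.03 for *Ebp*. The most negative ratio of a gene was in pair 3 for 8 of the 19 enzymes, in pair 5 for 7, and in pairs 1 and 2 for 2 each. The same split over all genes was not counted. In pair 1, which holds the library with *Cd1d1* counts near WT, 17 of the 19 enzymes were lower, with a median ratio of -0.38. Over all genes tested, 6293 of 13040 were lower in pair 1. The median ratios of the other pairs were -0.43, -0.30 and -0.43 in pairs 2, 3 and 5.

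Other genes around the pathway were read from lists chosen by role. Of 15 genes that draw on mevalonate for other products, such as dolichol, ubiquinone and protein prenylation, 0 passed an adjusted p under 0.05 with edgeR in either direction (and 0 with DESeq2; 0 had an unadjusted p under 0.05), and their median log2 fold change was -0.01. Among 17 genes of SREBP escort and turnover, 0 were lower (background 0.123%) and 1 was higher (0.284%). The higher gene was *Fbxw7*, part of a ubiquitin ligase known to mark nuclear SREBPs for breakdown. *Fbxw7* had 459, 451, 610 and 491 normalized counts in WT and 648, 861, 933 and 764 in CD1d-KO libraries, without overlap, as for 1.04% of all genes (log2 fold change 0.67 ± 0.09 SE, adjusted p = 0.0356, and 0.0808 without replicate 1). *Fbxw7* lies 2.02 Mb from *Cd1d1*, as *Fdps* and *Pmvk* do. Of 11 tested SREBP-1 fatty acid genes, 1 was lower (background 0.123%) and 0 were higher (0.284%). The lower gene was *Fads1*, the delta-5 desaturase, with 935, 514, 369 and 689 in WT and 693, 318, 206 and 407 in CD1d-KO libraries (log2 fold change -0.67 ± 0.09 SE, adjusted p = 0.0364, and 0.0581 without replicate 1). At an unadjusted edgeR p under 0.05, 3 of the fatty acid genes were lower and 0 higher. Of the escort and turnover genes 1 was lower and 1 higher, where 5.01% of all genes were lower and 7.35% higher. Without replicate 1 the counts of both lists were the same, where 3.68% of all genes were lower and 5.55% higher. The medians were 0.0049 for escort and turnover and -0.10 for the fatty acid genes (-0.16 without replicate 1). Of 9 tested genes of sterol storage and movement and 5 of oxysterol enzymes, 0 passed with either edgeR or DESeq2. At an unadjusted edgeR p under 0.05, 1 of the storage genes was lower and 3 were higher, and 1 of the oxysterol genes was lower and 1 higher, where 5.01% of all genes were lower and 7.35% higher. Without replicate 1 these counts were 0 and 2 for storage and 0 and 0 for the oxysterol enzymes, where 3.68% of all genes were lower and 5.55% higher.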

How the data were processed

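Per the labels and the study's methods, the authors trimmed single-end reads of polyA libraries with Cutadapt, aligned them to GRCm38 with STAR 2.5.2a and deposited, for each of 8 libraries and 48795 genes, the expected counts that RSEM 1.3.0 estimated, which are not normalized, and TPM. How strands were counted was not given in the sources used here. Here expected counts were rounded, genes were filtered with filterByExpr, TMM factors (0.904 to 1.10) were applied, and edgeR 4.0.16 (R 4.3.3) fitted genotype with the replicate number as a block, with Benjamini-Hochberg adjustment over 13040 genes. Same-numbered libraries deviated together from their group means (r of 0.487, 0.387, 0.505 and 0.207), all above 0.1, and the number was kept as a block. For replicate 5 a library of another number correlated slightly higher (0.220) than its own partner. Ratios within pairs used log2 CPM with a prior count of 2. TPM served for levels between genes. The sum of squares of log2 CPM was divided between pair, genotype and rest.

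Symbols were matched to gene IDs with GENCODE M21, which held 48435 of the 48795 IDs. Shared exons and near copies came from the same annotation and its transcripts. Promoter windows came from RefSeq (GRCm38.p6), and none was given for *Fdps*, *Fdft1*, *Sqle* and *Stard4*. The text names all 29 genes, *Cd1d1* and, from the other pathway lists, genes with an adjusted p under 0.05. From the marker lists it names *Ly6g*, *S100a8* and *S100a9*. *Ctsb*, *Vps51*, *Acat3*, *Tcp1* and *Gm13502* are named because they share sequence with a gene described. The genes and lists were chosen with earlier results of these data known. DESeq2 1.42.0, limma 3.58.1 on log2(TPM + 1), other scalings and filters, and leaving out each pair were tried as alternatives. The fits were tested on simulated data. Replicates came from separate mice. Counts per library limit the precision as given in the report.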

Additional observations from a re-analysis of the deposited data

Results flagged for a closer look

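Each of 60 groups of 4 libraries (29 genes and *Cd1d1* in both genotypes) was read for a single distant library with Dixon's test, and 4 were found, where chance gives about 1 in 20. *Cd1d1* in CD1d-KO pMacs had 60.7 normalized counts in replicate 1 against at most 1.14 in the others. In WT pMacs replicate 3 stood below the rest for *Tmem97* (94.9 normalized counts, with the others from 242 to 271) and for *Aacs* (187, with the others from 317 to 324). *Ebp* in CD1d-KO pMacs was highest in replicate 2, at 348 against 263 to 276 in the others.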

How the results depend on the processing

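Genes lower at an adjusted p under 0.01 with a fold change above 1.5 numbered 0, and 4 with DESeq2 or with no filter on counts. At an adjusted p under 0.05 the 2 genes became 12 with DESeq2 or with no filter on counts, 5 with DESeq2 size factors, with upper quartile factors, with at least 10 counts in every sample or with the other form of the quasi-likelihood fit, 0 with limma on log2(TPM + 1), 0 without the replicate block and 0 to 2 when a replicate was left out, with 0 without replicate 1, without replicate 3 and without replicate 5. At an unadjusted p under 0.05 there were 16. The median of the enzymes ran from -0.45 to -0.36 when a replicate was left out, the value nearest to 0 being without replicate 3. It was -0.37 without the genes within 10 Mb of *Cd1d1*, and -0.25 without the 8 enzymes the study marked as lower, which were chosen on these same libraries and so are no independent evidence. The sign of *Tm7sf2* reversed to -0.048 with limma and -0.14 without replicate 2 (range over left-out replicates -0.14 to 0.20), and that of *Lbr* to 0.042 and 0.063 (range -0.050 to 0.063). The shorter sterol element core was found in 6 genes instead of 1. The cause of these changes was not tested. Genes lower in all 4 pairs numbered 18 or 19 under the scalings and filters (background 10.1% in the main setting). The 19 were counted in TPM, where *Lss* and *Dhcr7* dropped out and *Rdh11*, *Tmem97* and *Mbtps2* came in. With a replicate left out, genes lower in all remaining pairs numbered 18 to 22, the highest without replicate 3. That rule asks for fewer pairs and is easier to meet, with a background of 15.8% without replicate 1.

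Depth limits *Tm7sf2* and *Dhcr7*, the genes with the fewest counts. The p-values rest on 4 mice per genotype, of which the library labelled CD1d-KO replicate 1 went against its label.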

Other observations

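The 8 tested genes of a proliferation list had a median log2 ratio of 2.5 in pair 1, where the CD1d-KO library is the one with *Cd1d1* counts, and of -0.16, -0.33 and -0.52 in pairs 2, 3 and 5. With edgeR, 0 of them passed an adjusted p under 0.05 in either direction, and 0 had an unadjusted p under 0.05. The median log2 fold change of the list was 0.30 with all pairs and -0.55 without replicate 1, whereas that of the cholesterol enzymes was -0.44 and -0.45. The part of proliferation in the expression of the enzymes was not tested.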
